A study of Mus musculus with 20 samples.

Results

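Mitochondrial fatty acid oxidation and ketone body metabolism were examined in colonic IECs through a list of 30 named genes, chosen by gene symbol as enzymes and carriers of these routes. Of these, 29 had a row among the 15876 genes of the count table, and *Acadvl* was not analysed here. The list was chosen with earlier results of these data known, and the study had reported lower expression of fatty acid degradation genes in Str. RNA sequencing compared 10 Con and 10 Str male C57BL/6NCrl mice of 6 to 8 weeks with a conventional microbiota, 1 library per mouse. In the social disruption stressor (Str), a retired breeder male of the same strain was put as an aggressor into a cage of 3 residents for 2 h on each of 6 d, and colons were taken at least 12 h after the last exposure. Con mice stayed in their home cages and were not handled, so the presence of an intruder, the fighting and the disturbance of the cage cannot be told apart. Colonic IECs were the cells that bound EpCAM beads and did not bind CD45 beads, so all epithelial cell types of the colon were pooled in each library. Which residents shared a cage is not given in the sources used here, and each mouse was treated as independent.

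Fatty acids are activated to acyl-CoA, pass the inner mitochondrial membrane as carnitine esters and are then shortened in cycles of dehydrogenation, hydration, a second oxidation and thiolysis, each cycle releasing acetyl-CoA and passing electrons to the respiratory chain. Ketogenesis turns acetyl-CoA into acetoacetate and β-hydroxybutyrate. Colonocytes are known for drawing much of their energy from oxidation of butyrate, a short-chain fatty acid made by colonic bacteria.

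Transcripts of this pathway were mostly lower in Str, by modest amounts. At an adjusted p under 0.05 (edgeR quasi-likelihood test, Benjamini-Hochberg over all genes), 15 of the 29 members were lower in Str, 1 was higher and 13 did not pass. Among all genes tested, 7.72% were called lower and 8.94% higher. Since earlier results were known when the list was chosen, setting it beside all genes is description and not a test of the list. The fitted log2 fold change, Str over Con, was negative in 25 of 29 members (86.2%) and in 51.0% of all genes, with a median of -0.17 over the members and -0.0042 over all genes. The lower genes spanned activation (*Acsl3*, *Acsl1*), carnitine-dependent entry (*Cpt1a*, *Cpt2*, *Mlycd*), the β-oxidation cycle (*Acadm*, *Acads*, *Hadha*, *Hadhb*, *Hadh*, *Acaa2*) and electron transfer (*Etfdh*). *Acadl* was the member called higher. In these bulk libraries fewer cells of a type and less RNA per cell cannot be told apart.

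Library totals ranged from 20034127 to 26141352 counts, and the smallest count of a member in a library was 122. Levels are CPM, counts divided by a library size scaled by TMM, and errors are SD over 10 mice per group. A library name holds C (Con) or S (Str), a letter, V or L, whose meaning is not given in the sources used here, and a number. In 4 Con libraries (CV3, CV4, CV6 and CL1) *Alb*, the serum albumin gene of hepatocytes, was at 69.3 to 79.9 CPM. The other 16 libraries held 1.64 to 3.19 CPM. On *Alb* alone these 4 are called the Con libraries with liver transcripts. The hepatocyte marker *Trf* was also higher in them (26.4 to 35.6 CPM) than in the other Con libraries (17.2 to 25.4 CPM). It reached 34.5 CPM in Str. *Apoa2*, *Apoc1*, *Apob*, *Ttr*, *Cps1* and *Tat* overlapped between these 4 and the other Con libraries. For *Cps1* the overlap came only through CL6 (8.49 CPM). These 4 held 8.41 to 11.6 CPM of it, and CV1, CV2, CL2, CL3 and CL4 held 4.86 to 5.65 CPM. For *Ttr* it came only through CV6 (37.6 CPM). CV3, CV4 and CL1 held 46.9 to 51.9 CPM of *Ttr*, and the Con libraries outside these 4 held 31.0 to 41.7 CPM. Without these 4 libraries, 14 members were lower and 1 higher at an unadjusted p under 0.05 (edgeR), beside 1909 and 1997 of 15875 genes. The median of the members was then -0.14. At an adjusted p under 0.05, 8 members were lower and 0 higher, beside 3.83% and 5.38% of all genes. *Cpt1a*, *Cpt2*, *Mlycd*, *Acads*, *Hadh*, *Acaa2*, *Aldh3a2* and *Acot2* passed there, and *Acsl1*, *Acsl3*, *Acadm*, *Acadl*, *Hadha*, *Hadhb*, *Eci1* and *Etfdh* did not. The estimate of *Acsl1* moved there from -0.17 to -0.09 on the log2 scale. The others that did not pass changed less, with *Acsl3* at -0.38, *Acadl* at 0.22, *Eci1* at -0.26, *Acadm* at -0.22, *Hadhb* at -0.19, *Hadha* at -0.17 and *Etfdh* at -0.15 on 6 Con and 10 Str libraries. The part of liver transcripts in the result was not tested further.

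**Figure D1:**
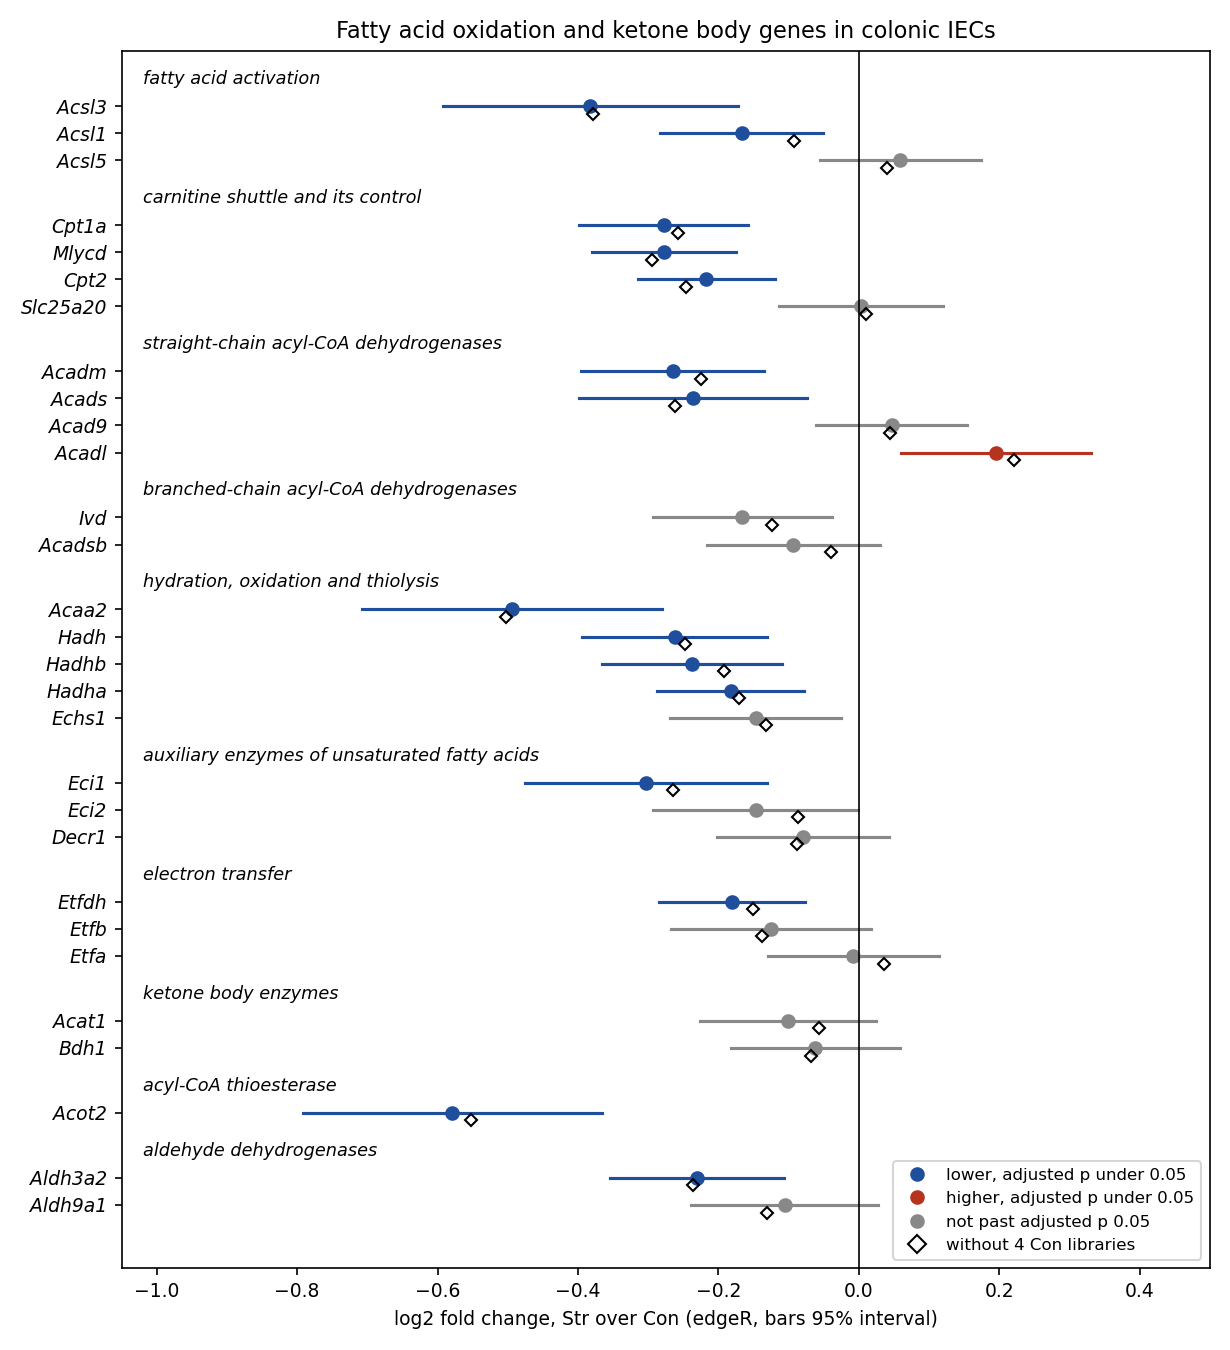
Log2 fold changes, Str over Con, of the 29 members grouped by role, with 95% intervals from edgeR on 10 Con and 10 Str libraries. Blue marks the 15 members called lower, red *Acadl*, called higher, and grey those that did not pass. Open diamonds are the estimate without the 4 Con libraries of high *Alb*. Most points lie left of 0, and *Acot2* (-0.58) and *Acaa2* (-0.49) lie farthest from it.

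Length-scaled levels in Con gave an approximate scale of the pathway in these cells. Each length was the union of all exons annotated to a gene in GENCODE M21, while reads were counted against the NCBI annotation. The length ran from 1164 bases for *Etfb* to 10483 bases for *Acsl1*, so the order of genes depends on it. Per kb of exon length, Con means ran from 3.76 CPM per kb for *Acsl1* to 126 CPM per kb for *Etfb*, with *Acsl3* at 118 and *Acaa2* at 95.8 CPM per kb next below *Etfb*. *Hadh* stood at 61.7, *Hadha* at 57.2 and *Cpt1a* at 54.3 CPM per kb, and *Acot2* at 5.42 CPM per kb was among the lowest. Summed over the 29 members, CPM was 4086 ± 235 in Con (3829 to 4455) and 3571 ± 256 in Str (3071 to 3977). The summed levels of the groups overlapped through SL4 (3977 CPM), the only Str library above the lowest Con library.

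Acyl-CoA synthetases attach coenzyme A to the fatty acid and so start every later step. *Acsl3*, whose product works mainly at the endoplasmic reticulum and lipid droplets, ranged from 429 to 668 CPM in Con (median 483) and from 309 to 577 CPM in Str (median 377). Of the 10 Str libraries, 8 were under every Con library, and SL4, the highest Str library, lay within the Con range. The mean fell from 515 ± 83.7 to 395 ± 77.3 CPM (log2 fold change -0.38, SE 0.10, edgeR adjusted p = 0.0121). *Acsl1*, the synthetase of the outer mitochondrial membrane in oxidative tissues, was called lower by a smaller amount, from 39.4 ± 3.71 to 35.1 ± 2.80 CPM (log2 fold change -0.17, SE 0.06, edgeR adjusted p = 0.0439). That call was lost without any 1 of 12 libraries (CV1, CV3, CV4, CV6, CL1, CL2, CL3, SV1, SV4, SV5, SV6 or SL1), where the adjusted p reached 0.0820. *Acsl5*, abundant in intestinal epithelium, did not pass, with means of 122 ± 7.46 CPM in Con and 127 ± 14.4 CPM in Str (log2 fold change 0.06, 95% interval -0.06 to 0.17).

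Of the 4 members for entry of long-chain acyl groups into the matrix, 3 were lower in Str. *Cpt1a* encodes the liver-type carnitine palmitoyltransferase of the outer membrane, the main regulated step of entry. Its level ranged from 358 to 451 CPM in Con (median 425) and from 281 to 402 CPM in Str (median 336), with 7 Str libraries below the lowest Con library. The mean fell from 415 ± 31.2 to 342 ± 36.5 CPM (log2 fold change -0.28, SE 0.06, edgeR adjusted p = 0.00232). *Cpt2*, the inner-membrane enzyme that rebuilds acyl-CoA in the matrix, ranged from 70.6 to 92.4 CPM in Con (median 78.7) and from 61.0 to 76.8 CPM in Str (median 66.8), and 6 Str libraries were under the Con range. It fell from 79.2 ± 6.16 to 68.2 ± 4.77 CPM (log2 fold change -0.22, SE 0.05, edgeR adjusted p = 0.00300). *Mlycd* encodes malonyl-CoA decarboxylase, which removes malonyl-CoA, the inhibitor of CPT1. Con libraries held 23.3 to 32.8 CPM of *Mlycd* (median 27.3) and Str libraries 21.2 to 24.0 CPM (median 22.4), with 8 Str libraries below every Con library. *Mlycd* fell by 0.28 on the log2 scale (SE 0.05, edgeR adjusted p = 0.000651), and its coefficient of variation was 9.49% in Con and 3.98% in Str. *Slc25a20*, the carnitine-acylcarnitine carrier that lies between CPT1 and CPT2, had means of 156 ± 14.5 and 156 ± 13.7 CPM and a log2 fold change of 0.0032 (95% interval -0.11 to 0.12).

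The 4 measured straight-chain acyl-CoA dehydrogenases, which take the first electrons from fatty acids of different lengths, did not move in 1 direction. *Acadm*, the medium-chain enzyme, ranged from 165 to 206 CPM in Con (median 185) and from 126 to 180 CPM in Str (median 159), with 6 Str libraries below the Con range. The mean fell from 185 ± 14.1 to 154 ± 18.9 CPM (log2 fold change -0.27, SE 0.06, edgeR adjusted p = 0.00575). *Acads*, the short-chain enzyme that acts on butyryl-CoA, was at 121 to 182 CPM in Con (median 151) and at 99.4 to 144 CPM in Str (median 132), and every Str library was below the Con median. Its log2 fold change was -0.24 (SE 0.08, edgeR adjusted p = 0.0416), and the call was lost without any 1 of 11 libraries (CV1, CV2, CV3, CV6, CL3, CL6, SV1, SV2, SL1, SL2 or SL6), with an adjusted p of up to 0.0828.

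*Acadl*, the long-chain enzyme, was the only member called higher, while *Acad9*, *Acsl5* and *Slc25a20* had positive estimates that did not pass. *Acadl* ranged from 69.5 to 85.9 CPM in Con (median 74.8) and from 70.9 to 114 CPM in Str (median 84.6). The Str libraries SV6 (114 CPM), SV1 (99.9 CPM) and SL2 (95.8 CPM) lay above every Con library and the other 7 within the Con range. The mean rose from 76.6 ± 5.21 to 87.8 ± 12.3 CPM (log2 fold change 0.20, SE 0.07, edgeR adjusted p = 0.0425). The call was lost when any 1 of 13 libraries was left out (CV1, CV6, CL1, CL2, CL3, CL4, CL6, SV1, SV2, SV6, SL1, SL2 or SL6), with adjusted p values of up to 0.0902 and an estimate of 0.15 without SV6. It was also lost in the V libraries alone (edgeR adjusted p = 0.174), in the L libraries alone (0.194) and with library sizes not scaled by TMM (0.0807). *Acad9*, known also as an assembly factor of respiratory complex I, had means of 40.9 ± 2.77 and 42.3 ± 3.84 CPM and did not pass (log2 fold change 0.05, 95% interval -0.06 to 0.15).

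The branched-chain dehydrogenases did not pass. *Ivd*, isovaleryl-CoA dehydrogenase of leucine breakdown, was at 55.6 ± 4.66 CPM in Con and 49.6 ± 5.61 CPM in Str (log2 fold change -0.17, SE 0.06, edgeR adjusted p = 0.0665), and 5 Str libraries were under every Con library. It passed when CL4, SV5 or SV6 was left out, with a lowest adjusted p of 0.0207. *Acadsb*, the dehydrogenase of isoleucine breakdown, had a log2 fold change of -0.09 (95% interval -0.22 to 0.03).

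Of the 5 members that carry out hydration, the second oxidation and thiolysis, 4 were lower in Str. *Acaa2*, the mitochondrial 3-ketoacyl-CoA thiolase that releases acetyl-CoA, ranged from 116 to 194 CPM in Con (median 141) and from 75.7 to 133 CPM in Str (median 99.2). In Str, 8 libraries were below the lowest Con library, and SL5 (133 CPM) and SL4 (132 CPM) were within the Con range. The mean fell from 145 ± 26.0 to 103 ± 18.4 CPM, by 29.0% (log2 fold change -0.49, SE 0.10, edgeR adjusted p = 0.00219). Among the Con libraries with liver transcripts, *Acaa2* was at 178 CPM in CV3, 121 CPM in CV4, 158 CPM in CV6 and 116 CPM in CL1, so these 4 spanned most of the Con range of this gene. Without them its log2 fold change was -0.50 (edgeR adjusted p = 0.0110). Over the 29 members, CV3 was the highest Con library for 13, CV6 for 2 and CV4 for 1, beside 8 for CV2, which is not among the 4. The lowest was CL1 for 5, CV4 for 3 and CV6 for 1, beside 10 for CL4 and 7 for CL2. Such tallies over all genes were not computed.

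*Hadh*, the 3-hydroxyacyl-CoA dehydrogenase of medium and short chains, ranged from 268 to 362 CPM in Con (median 310) and from 207 to 290 CPM in Str (median 260), with 6 Str libraries below the Con range. It fell from 307 ± 30.4 to 256 ± 27.2 CPM (log2 fold change -0.26, SE 0.06, edgeR adjusted p = 0.00677). *Echs1*, the short-chain enoyl-CoA hydratase, did not pass (127 ± 11.9 and 115 ± 11.3 CPM, log2 fold change -0.15, SE 0.06, edgeR adjusted p = 0.0903), though it did without the Str library SV6 (adjusted p = 0.0435).

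*Hadha* and *Hadhb* encode the α and β subunits of the mitochondrial trifunctional protein, which carries out the last 3 steps of the cycle on long chains, and they are transcribed away from each other. On GRCm38 *Hadha* lies on chromosome 5 from 30118304 to 30155162 on the minus strand and *Hadhb* from 30155248 to 30184593 on the plus strand (GENCODE M21), and the RefSeq starts of the pair are 273 bases apart. The bases between the gene bodies, at chr5:30155163-30155247 of GRCm38, are shown on the plus strand because both members fell and share this stretch, with capitals marking GGGCGG, the core of a GC box.
Hadha-Hadhb: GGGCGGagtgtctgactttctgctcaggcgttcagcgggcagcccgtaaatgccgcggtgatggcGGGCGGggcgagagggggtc
This stretch of 85 bases held 2 matches to GGGCGG and 9 CpG, with 69.4% G or C. *Hadha* ranged from 451 to 556 CPM in Con (median 496) and from 375 to 471 CPM in Str (median 457), with 4 Str libraries below the Con range. It fell from 499 ± 39.3 to 440 ± 32.2 CPM (log2 fold change -0.18, SE 0.05, edgeR adjusted p = 0.0157). *Hadhb* ranged from 52.4 to 69.3 CPM in Con (median 58.9) and from 42.9 to 62.6 CPM in Str (median 49.9), with 7 Str libraries below the Con range. It fell from 59.4 ± 4.76 to 50.4 ± 6.03 CPM (log2 fold change -0.24, SE 0.06, edgeR adjusted p = 0.0108). The Str library SL2 was the lowest and SL4 the highest for both subunits. Per kb, the Con mean of *Hadha* was 57.2 CPM per kb and that of *Hadhb* 9.00 CPM per kb. These values rest on union exon lengths of 8730 and 6595 bases, and other transcript lengths were not tried.

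Promoter windows of RefSeq, 250 bases before to 50 bases after a start, were at hand for 25 of the members. GGGCGG, searched on both strands, was found for 18 of the 25 members and in 35.7% of all 32851 windows. The windows of *Hadha* and *Hadhb* overlap by 228 bases, so these 2 among the 18 are largely the same sequence. CCAAT, likewise on both strands, was in 14 of 25 and in 37.4% of all windows. AGGTCA, a single half-site of nuclear receptors such as the PPARs, was in the windows of *Acadm*, *Cpt1a* and *Echs1* (3 of 25, against 16.3% of all windows). A direct repeat of it with 1 base between, AGGTCANAGGTCA, was in 0 of the 25 and in 0.0396% of all windows. These matches describe letters in a short window only, and the longer motif contains the shorter. A member counted if any of its windows matched, while all windows were counted singly and were not limited to genes of the count table. The shares are thus not like for like, and enrichment was not tested.

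Auxiliary enzymes convert double bonds so that unsaturated fatty acids can enter the cycle. *Eci1*, a mitochondrial enoyl-CoA isomerase, ranged from 21.9 to 34.5 CPM in Con (median 28.2) and from 17.6 to 26.3 CPM in Str (median 23.6). All 10 Str libraries were below the Con median and 4 below the lowest Con library, and its log2 fold change was -0.30 (SE 0.08, edgeR adjusted p = 0.0149). *Eci2*, a second isomerase of mitochondria and peroxisomes, had a log2 fold change of -0.15 and did not pass (edgeR adjusted p = 0.163). *Decr1*, the 2,4-dienoyl-CoA reductase, did not pass either, with a log2 fold change of -0.08 (95% interval -0.20 to 0.04).

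Electrons leave the dehydrogenases through ETF, a dimer encoded by *Etfa* and *Etfb*, and its oxidoreductase, encoded by *Etfdh*, hands them to ubiquinone. *Etfdh* ranged from 148 to 190 CPM in Con (median 164) and from 126 to 157 CPM in Str (median 151), with all 10 Str libraries below the Con median. It fell from 166 ± 13.9 to 147 ± 10.8 CPM (log2 fold change -0.18, SE 0.05, edgeR adjusted p = 0.0158). The ETF subunits did not pass. *Etfa* was at 83.0 ± 6.25 CPM in Con and 82.6 ± 9.54 CPM in Str, with a 95% interval of the log2 fold change from -0.13 to 0.11. *Etfb* had a log2 fold change of -0.12 (95% interval -0.27 to 0.02).

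*Acot2*, a mitochondrial thioesterase that cleaves acyl-CoA back to fatty acid and coenzyme A, had the largest fitted change of the 29 members. It ranged from 8.71 to 14.6 CPM in Con (median 12.1) and from 5.67 to 10.5 CPM in Str (median 7.86), and the highest Str libraries, SL4 (10.5 CPM) and SL5 (9.95 CPM), were within the Con range. The other 8 Str libraries were under every Con library. The mean fell from 11.9 ± 1.86 to 7.97 ± 1.41 CPM, by 33.0% (log2 fold change -0.58, SE 0.10, edgeR adjusted p = 0.000622). Its neighbour *Acot1*, a cytosolic thioesterase 15617 bases away on chromosome 12, is close to it in sequence and fell from 6.61 ± 1.27 to 5.01 ± 0.981 CPM (log2 fold change -0.40, edgeR adjusted p = 0.0237, 0.0502 without the Con library CL6, and 0.0962 with a log2 fold change of -0.39 without the 4 Con libraries with liver transcripts). How reads common to both genes were assigned was not tested, so the values of each are uncertain.

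*Aldh3a2*, which encodes fatty aldehyde dehydrogenase, ranged from 76.8 to 98.8 CPM in Con (median 85.9) and from 62.8 to 84.2 CPM in Str (median 74.4), with 7 Str libraries below the Con range. It fell from 86.3 ± 7.48 to 73.6 ± 7.86 CPM (log2 fold change -0.23, SE 0.06, edgeR adjusted p = 0.0107). *Aldh9a1*, an aldehyde dehydrogenase of carnitine synthesis, did not pass (log2 fold change -0.11, 95% interval -0.24 to 0.03).

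**Figure D2:**
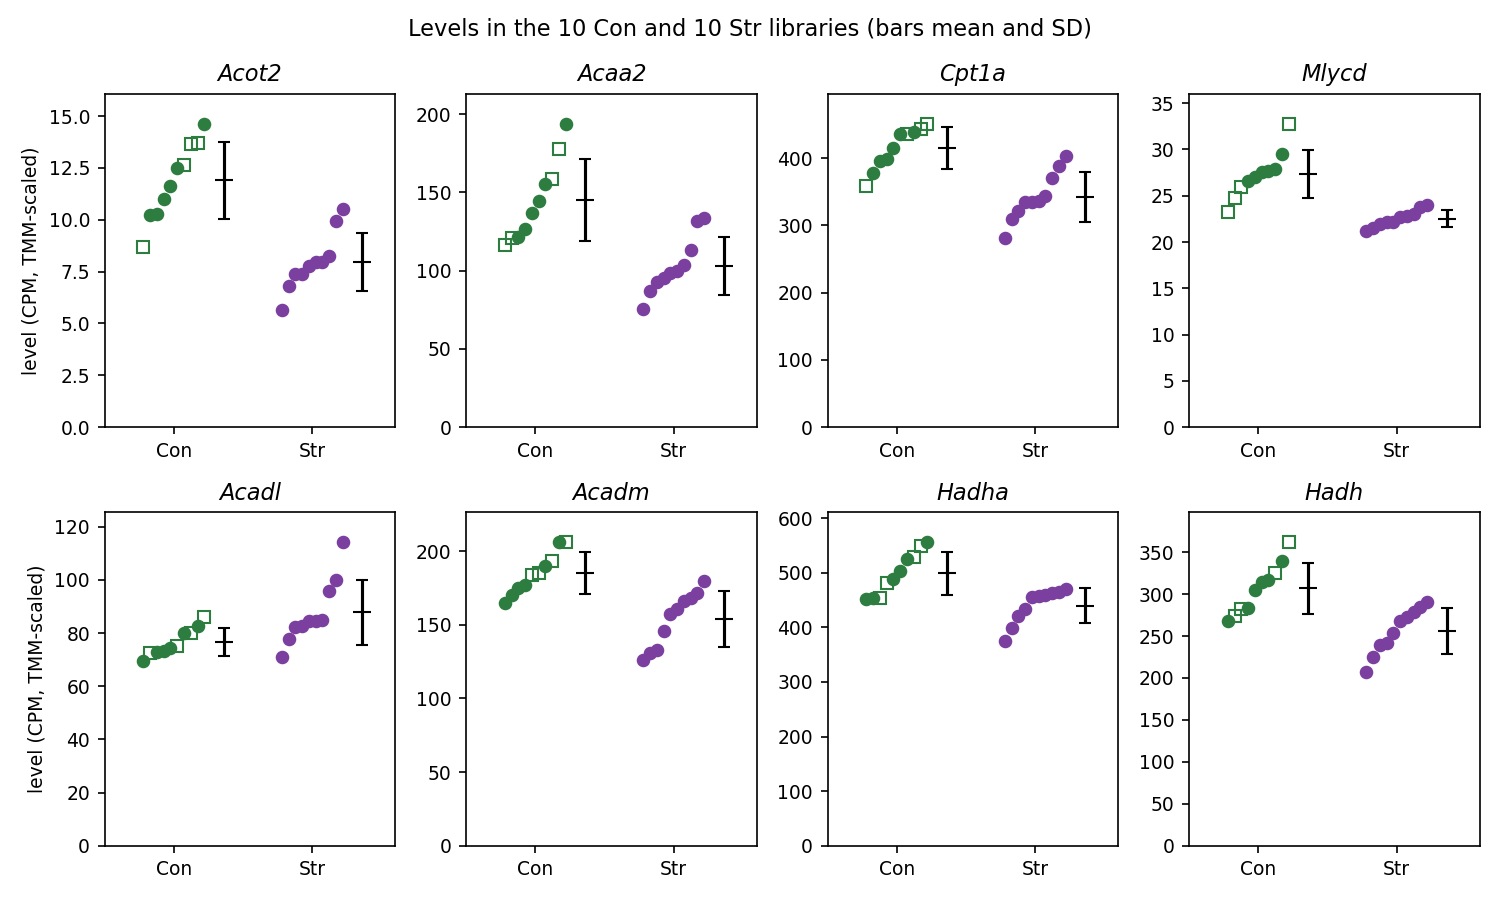
Level in CPM of 8 members in each of the 10 Con and 10 Str libraries, with mean and SD beside the points. Open squares are the 4 Con libraries of high *Alb*, which are spread over the Con range for *Acot2* and *Acaa2*. Among them CV3 is the highest Con library for *Cpt1a*, *Mlycd*, *Acadl*, *Acadm* and *Hadh*. *Acadl* is the panel in which Str lies higher.

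Ketone body enzymes among the members did not pass. *Acat1*, the mitochondrial acetoacetyl-CoA thiolase that works in ketone body and isoleucine metabolism, was at 187 ± 15.7 CPM in Con and 174 ± 19.4 CPM in Str (log2 fold change -0.10, 95% interval -0.23 to 0.03). *Bdh1*, which interconverts acetoacetate and β-hydroxybutyrate, was at 179 ± 16.5 and 172 ± 16.5 CPM (log2 fold change -0.06, 95% interval -0.18 to 0.06). In a list of 7 other genes of ketone body metabolism and transport, 6 were measured, of which 2 were lower and 4 did not pass (edgeR), with a median log2 fold change of -0.16.

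*Slc16a1*, which encodes the monocarboxylate transporter MCT1 for butyrate and ketone bodies, was the one gene of that list in which all 10 Str libraries (452 to 592 CPM) lay below all 10 Con libraries (598 to 734 CPM), as in 0.126% of all genes. It fell from 658 ± 46.8 to 512 ± 48.9 CPM (log2 fold change -0.36, SE 0.05, edgeR adjusted p = 0.000127). *Slc16a7*, the transporter MCT2, also fell, by 0.51 on the log2 scale (edgeR adjusted p = 0.0172), a call lost without the 4 Con libraries with liver transcripts (log2 fold change -0.50, adjusted p = 0.0785). *Oxct1*, the enzyme that starts the use of ketone bodies, did not pass (355 ± 29.4 and 362 ± 25.5 CPM).

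None of the 29 members separated the groups in full. The share of all genes in which every Str library lay below the lowest Con library was 0.126%, and in 0.239% every Str library lay above the highest. At least 5 Str libraries were under every Con library in 11 members. These were *Acadm*, *Ivd*, *Acaa2*, *Acsl3*, *Cpt1a*, *Cpt2*, *Hadh*, *Hadhb*, *Aldh3a2*, *Mlycd* and *Acot2*. The share of all genes that met this looser criterion was not computed, and the 0.126% above is for all 10 Str libraries. In single Str libraries, 9.12 to 20.3% of all genes lay below the lowest Con library. The same libraries recurred at the extremes of Str. SL2 was the lowest Str library for 17 of the 29 members, and SL4 was the highest for 7, SL5 for 5 and SV6 for 11. How often these libraries were the extremes over all genes was not computed. SL2 and SV6 had the largest shares of all genes below the lowest Con library, 20.3 and 18.7%.

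Mice differed in how far the list was shifted as a whole. Every Str library had more members below than above the median of the 10 Con libraries, from 17 of 29 in SV6 and 20 of 29 in SV1 and SV4 to 27 of 29 in SL2 and SV2. For all genes the corresponding share stayed between 49.6 and 52.2% in each Str library. Members below the lowest Con library were more uneven, with 23 of 29 in SL2, 18 in SL6 and 16 in SV2 but 1 in SL4 and 6 in SL5, where 20.3, 16.5, 13.2, 9.15 and 9.12% of all genes lay below it. SL4 thus had 24 of 29 members below the Con median and 1 below the Con range, with the highest Str level of *Cpt1a*, *Acadm*, *Hadha* and *Acot2*. Within Con the count below the Con median also varied between libraries, from 3 of 29 in CV3 and 4 in CV2 to 24 in CL1 and 27 in CL4.

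**Figure D3:**
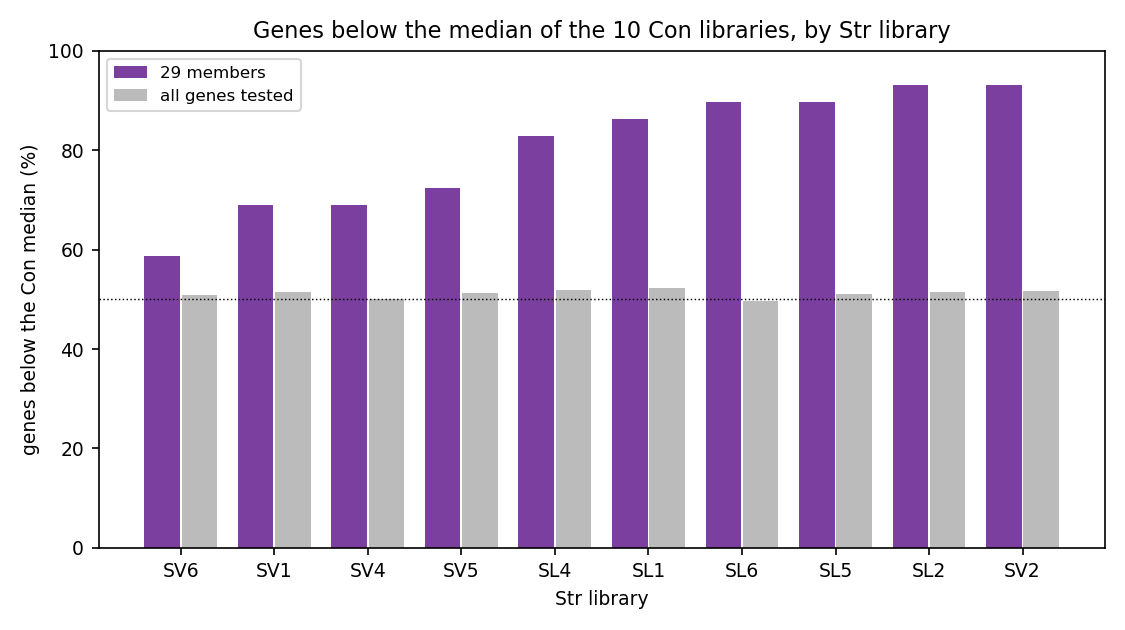
Share of genes below the median of the 10 Con libraries in each Str library, for the 29 members (purple) and all 15876 genes (grey). The member bars run from 17 of 29 in SV6 to 27 of 29 in SL2 and SV2, and the grey bars stay near 50%.

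The V and L libraries, 5 of each per group, were also compared apart. In the V libraries alone 13 members were lower and 0 higher (5.15% and 5.08% of all genes called), with a median log2 fold change of -0.21. At an unadjusted p under 0.05 (edgeR), 18 members were lower and 1 higher there, beside 2113 and 1979 of 15875 genes. In the L libraries alone 0 members were lower and 0 higher (0.0126% and 0.0567% of all genes called), with a median of -0.16. There 15 members were lower and 1 higher at an unadjusted p under 0.05 (edgeR), beside 1168 and 1498 of 15876 genes. The largest gaps between both sets were in *Acot2*, at -0.78 in V and -0.37 in L, and *Acaa2*, at -0.63 in V and -0.35 in L. The interaction of group and letter was called for 0 of 15876 genes by edgeR (918 genes, or 5.78%, at an unadjusted p under 0.05), and 2 of the 29 members, *Acadsb* and *Acot2*, were under an unadjusted p of 0.05, with a lowest adjusted p of 0.860 among members.

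Neighbouring steps were read from lists of other genes of the pathway. Of 9 further genes of long-chain activation and the carnitine shuttle, 2 were lower and 7 did not pass (edgeR). These were *Crat*, carnitine acetyltransferase (log2 fold change -0.14, adjusted p = 0.0136), and *Slc22a5*, the plasma membrane carnitine transporter OCTN2 (-0.19, adjusted p = 0.0463), whose call was lost when any 1 of 14 libraries was left out (CV1, CV2, CL1, CL2, CL3, CL4, CL6, SV1, SV2, SV4, SV5, SV6, SL2 or SL6, adjusted p up to 0.0888) or the 4 Con libraries with liver transcripts (log2 fold change -0.22, adjusted p = 0.0689). The muscle and brain forms of CPT1, *Cpt1b* and *Cpt1c*, were below 1 CPM on average in both groups. Of 3 measured synthetases of short and medium chains, 2 were lower: *Acss1*, mitochondrial acetyl-CoA synthetase (123 ± 9.21 to 103 ± 11.6 CPM, log2 fold change -0.25, adjusted p = 0.00526), and *Acss3* (-0.87, adjusted p = 0.0398), which had mean levels of 1.07 and 0.579 CPM. The call of *Acss3* was lost without any 1 of 11 libraries (CV3, CV6, CL1, CL3, SV1, SV4, SV6, SL1, SL2, SL4 or SL6, adjusted p up to 0.0935), and its log2 fold change was -0.23 without the 4 Con libraries with liver transcripts. *Acss1* did not pass without those 4 either (log2 fold change -0.21, edgeR adjusted p = 0.0538). The smallest count of *Acss3* in a library was 9.

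Among 16 other dehydrogenases, hydratases and thioesterases, 2 were lower, 1 was higher and 13 did not pass (edgeR). *Acot11*, a thioesterase known from brown fat in the mouse, was in every Str library above all Con libraries, as in 0.239% of all genes, and rose from 53.8 ± 3.46 (47.4 to 60.1) to 82.0 ± 11.7 CPM (60.7 to 98.3) (log2 fold change 0.61, SE 0.07, edgeR adjusted p = 1.0e-05). *Acad8*, isobutyryl-CoA dehydrogenase of valine breakdown, fell by 0.15 on the log2 scale (edgeR adjusted p = 0.0123), and *Acot1* was given above. Of 13 measured genes of propionyl-CoA and branched-chain breakdown, 2 were lower and 11 did not pass, with 12 of 13 estimates negative and a median of -0.13. *Pccb*, a subunit of propionyl-CoA carboxylase, fell by 0.21 and *Mut*, methylmalonyl-CoA mutase, by 0.16 on the log2 scale (adjusted p = 0.00260 and 0.0167 from edgeR). Without the 4 Con libraries with liver transcripts *Acad8* (log2 fold change -0.14, adjusted p = 0.0577) and *Mut* (-0.13, adjusted p = 0.107) did not pass in edgeR.

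Of 15 measured genes of fatty acid uptake and control, 7 were lower and 8 did not pass (edgeR). *Fabp2*, the intestinal fatty acid binding protein, fell from 308 ± 43.1 to 201 ± 49.5 CPM (log2 fold change -0.61, adjusted p = 0.000836), and *Slc27a2*, a fatty acid transporter and very long-chain synthetase, from 6.08 ± 0.850 to 4.00 ± 1.43 CPM (-0.61, adjusted p = 0.00770). *Ppargc1a*, the coactivator PGC-1α of mitochondrial genes, fell from 127 ± 11.5 to 99.5 ± 21.7 CPM (-0.35, edgeR adjusted p = 0.0150). *Ppara*, the nuclear receptor known in liver to drive many genes of the pathway, fell from 28.3 ± 6.02 to 18.8 ± 8.21 CPM (-0.59, SE 0.18, edgeR adjusted p = 0.0301), with 8 Str libraries below the Con range. Its call was lost without any 1 of 7 libraries (CV2, CV6, SV1, SV2, SL1, SL2 or SL6, adjusted p up to 0.0592) and without the 4 Con libraries with liver transcripts (log2 fold change -0.58, adjusted p = 0.104). Without those 4 libraries the calls of *Slc27a2* (log2 fold change -0.60, adjusted p = 0.0510), *Ppargc1a* (-0.36, adjusted p = 0.0660) and *Slc27a1* (-0.21, adjusted p = 0.120) were lost too, and that of *Fabp2* held (-0.68, edgeR adjusted p = 0.00396). *Slc27a1*, *Slc27a4* and *Plin2* were the others called lower. The calls of *Slc27a4* (edgeR adjusted p = 0.0236) and *Plin2* (edgeR adjusted p = 0.0443) were not followed in the fits with libraries left out. *Pdk4*, the kinase that restrains pyruvate oxidation, did not pass (log2 fold change -0.75, SE 0.28, edgeR adjusted p = 0.0719).

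Other mitochondrial enzymes gave a reference outside fatty acid oxidation. Of 21 measured genes of the citric acid cycle, respiratory chain, ATP synthase and import, 1 was lower, 1 higher and 19 did not pass (edgeR), and 19 of 21 estimates were negative, with a median of -0.08 against -0.17 for the members. At an unadjusted p under 0.05 (edgeR), 5 of the 21 were lower and 1 higher, and 18 of the 29 members were lower and 1 higher. Over all 15876 genes 2457 were lower and 2356 higher at that threshold. *Sdhb*, a subunit of succinate dehydrogenase, fell by 0.19 on the log2 scale (adjusted p = 0.0188), and *Cs*, citrate synthase, rose from 681 ± 50.3 to 753 ± 40.9 CPM (0.14, edgeR adjusted p = 0.0330). The call of *Cs* was lost without any 1 of 9 libraries (CV2, CV3, CV6, CL6, SV1, SV2, SV6, SL1 or SL2, adjusted p up to 0.0644) and without the 4 Con libraries with liver transcripts (log2 fold change 0.11, adjusted p = 0.208). Whether the lists differ in their shift was not tested.

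**Figure D4:**
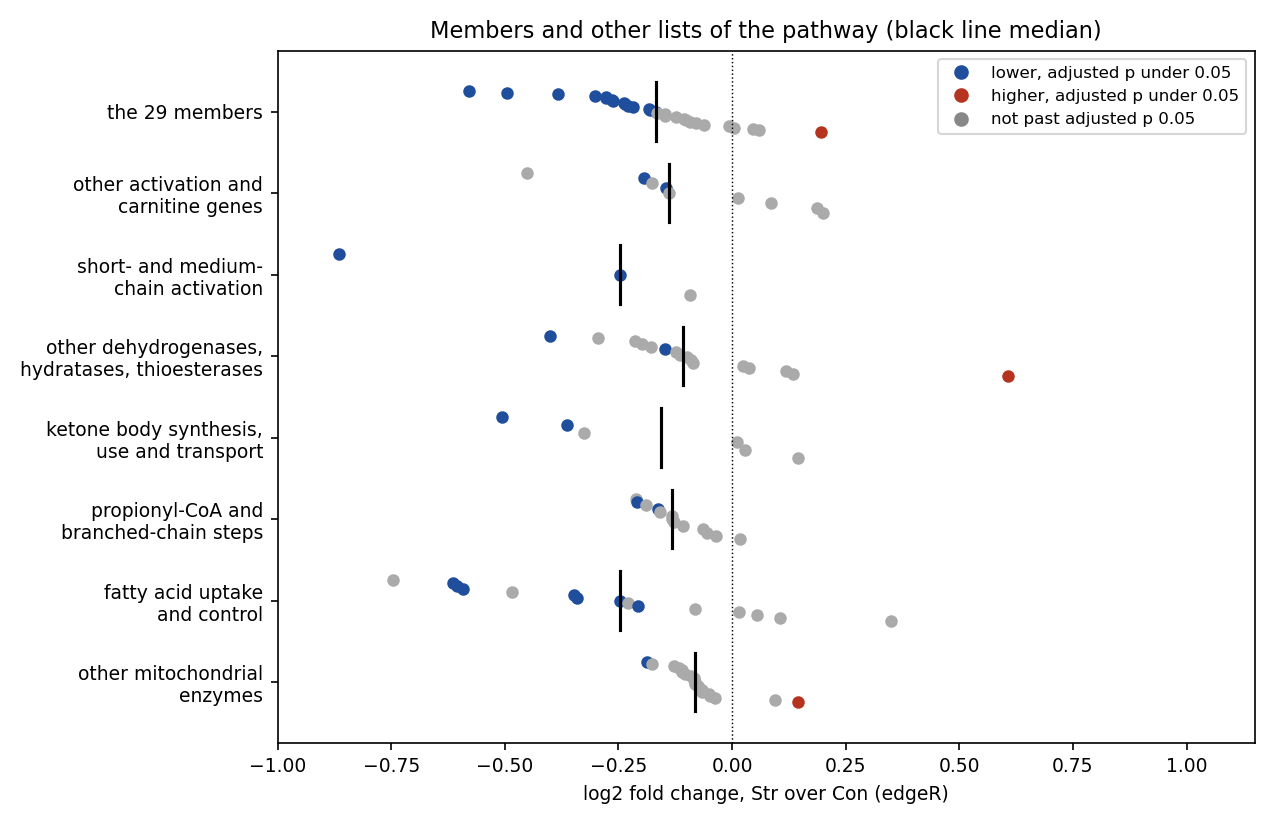
Log2 fold changes, Str over Con, of each gene in the 29 members and in 7 other lists of the pathway, with colours as calls at an adjusted p under 0.05 (blue lower, red higher, grey not passed) and a black line at each list's median. The median is -0.17 for the members and -0.08 for the other mitochondrial enzymes, and *Acot11* is the gene farthest to the right.

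Markers of cell types were read beside these results. Epithelial markers were high in all libraries (summed level of 8 markers 12808 to 15183 CPM in Con and 11823 to 15739 CPM in Str), and edgeR called 0 of 8 (3 at an unadjusted p under 0.05). Of 9 markers of mature colonocytes, 5 were higher (*Krt20*, *Slc26a3*, *Aqp4*, *Ceacam1* and *Ceacam20*) and 1, *Car1*, was lower (edgeR), with summed levels of 10886 to 15568 CPM in Con and 12642 to 15777 CPM in Str. At an unadjusted p under 0.05 (edgeR), 6 of the 9 were higher and 2 lower. This added *Car4* (log2 fold change 0.32, edgeR adjusted p = 0.112) and *Guca2a* (-0.25, edgeR adjusted p = 0.0588). Of 8 markers of crypt base and cycling cells edgeR called 0 (0 at an unadjusted p under 0.05), and the summed level was 684 to 1287 CPM in Con and 771 to 1425 CPM in Str. Of 12 leukocyte markers 3 were measured, of which *Ptprc* (1.16 and 0.905 CPM, log2 fold change -0.37) and *Itgam* (2.63 and 2.35 CPM, -0.16) did not pass and *Ly6g*, a neutrophil antigen gene, was higher in Str (28.9 ± 7.51 to 75.9 ± 28.6 CPM). Of 16 hepatocyte markers 8 were measured, of which *Alb* and *Ttr* were lower and *Tat* higher, with summed levels of 260 to 422 CPM in Con and 287 to 390 CPM in Str. In the adipocyte (3 of 7 measured), smooth muscle, fibroblast and endothelium, and enteroendocrine and goblet lists edgeR called 0 genes, with 2 adipocyte genes and 0 of the others at an unadjusted p under 0.05. The part of these shifts in the levels of the members was not tested.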

How the data were processed

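Colonic IECs (EpCAM+, CD45-) of 10 Con and 10 Str mice were sequenced by the authors as paired-end, directional libraries from RNA depleted of ribosomal RNA. Per the study's methods and the submitters' processing notes, reads were aligned with STAR to GRCm38.p4 and counted per gene with HTSeq against the NCBI annotation. The counts used here are whole numbers as deposited by the authors, and 20 columns of scaled per-sample values were not used. The first letter of a column name (C or S) gave its group, and which mouse each column is was not resolved.

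The quasi-likelihood test of edgeR 4.0.16 under R 4.3.3 compared both groups, using TMM factors, no covariate and a mean count minimum of 4, which removed 0 genes, with Benjamini-Hochberg adjustment over 15876 genes. Alternatives were RLE factors, library sizes alone, DESeq2 1.42.0, limma-voom (limma 3.58.1) with quality weights, 2 other filters, robust empirical Bayes, subsets of libraries, the letter as covariate and a replicate block. The pipeline was tested on simulated counts. Gene positions and exon lengths are from GENCODE M21 (GRCm38), and promoter windows from RefSeq. All members with a row are named, and of other lists up to 4 called genes of smallest adjusted p and genes whose role the text turns on. Members and lists were chosen with earlier results of these data known. A few genes of these lists are not reported here.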

Additional observations from a re-analysis of the deposited data

Results flagged for a closer look

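One value stood apart from its group. *Acsl5*, a long-chain acyl-CoA synthetase, was at 160 CPM in the Str library SV6, where the next highest Str library was at 134 CPM, a gap of 0.508 of the range of the 10 Str libraries and above the critical value for a group of that size. The same library was the highest Str library for 11 of the 29 members, *Acadl* (114 CPM) among them. With 58 groups checked, 2 for each member, about 1 in 20 would be marked by chance.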

How the results depend on the processing

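The count of 15 members lower and 1 higher became 14 and 1 with RLE factors, 15 and 1 with DESeq2, 16 and 1 with limma-voom, 14 and 1 with the filter of edgeR, and 17 and 1 with the letter as a covariate, where 7.22 to 10.7% of all genes were called lower and 9.25 to 10.5% higher. With library sizes alone 17 were lower and 0 higher. Over all genes 1949 (12.3%) were then lower and 1031 (6.49%) higher, in place of 1226 and 1420. At an unadjusted p under 0.05 (edgeR), 1 member and 1590 of all genes were higher there. Without the 4 Con libraries with liver transcripts 8 were lower and 0 higher, in the V libraries 13 and 0, and in the L libraries 0 and 0. In the L libraries 15 members were lower and 1 higher at an unadjusted p under 0.05 (edgeR), beside 1168 and 1498 of all genes. At an adjusted p under 0.05, 2 genes of all were called lower and 9 higher there. Leaving out each library in turn gave 13 to 16 lower and 0 to 1 higher, with a median over the members of -0.19 to -0.16. The higher call is that of *Acadl*, and the lower calls lost there were those of *Acads* and *Acsl1*. Whether column names shared by a Con and a Str library tie mice to each other is not given in the sources used here. Correlations of deviations in the 8 such pairs ran from 0.0037 to 0.34. Of these, 4 were over 0.1, and 2 libraries were closest to their own name. They were not set against pairs of unlike names, so they do not decide the question. The replicate block by these names, on 16 libraries, gave 13 lower and 1 higher, with 12 of the 15 lower calls kept (*Acads*, *Acsl1* and *Cpt2* lost) and *Ivd* gained. The same 16 libraries with no block, a comparison chosen after seeing the data, also gave 13 and 1, with 13 kept (*Acads* and *Acsl1* lost). No called member changed sign under any of the 33 alternatives. Among the members *Acot2* rests on the fewest counts, at least 122 per library.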
